A study of Mus musculus with 16 samples.

Results

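The insulin-like growth factor (IGF) axis was described here through 10 genes: the ligands Igf1 and Igf2, the receptors Igf1r and Igf2r, and the binding proteins Igfbp2, Igfbp3, Igfbp4, Igfbp5, Igfbp6 and Igfbp7. The genes were chosen by name, with earlier results of these data known. All 10 were among the 19938 genes measured, each by a single probe set. The 16 arrays, of the type Affymetrix Mouse Gene 1.0 ST, fell into 4 groups of 4 and were made from proliferating mouse embryo fibroblasts (MEFs) of the strain C57Bl/6 x 129Sv. WT MEFs came from littermate controls and the others from mice lacking SIMPL, a co-activator of the NF-κB subunit p65 that is also known as IRAK1BP1. WT and SIMPL-/- MEFs were left untreated or received recombinant human TNFα at 10 ng/ml, for 45 min in the array labels and for 1 h in the methods. The methods describe MEFs made from a single embryo on 4 separate occasions for each strain, so an array stands for 1 embryo's cells, all cells of a SIMPL-/- embryo carried the deletion, and no source ties an untreated to a treated array.

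The IGF axis controls the growth of the embryo and of cultured fibroblasts. Igf1 and Igf2 are secreted ligands that act through the receptor tyrosine kinase Igf1r, which signals through insulin receptor substrates to PI3 kinase and Akt. Igf2r, the cation-independent mannose 6-phosphate receptor, takes Igf2 up for breakdown in lysosomes and sorts lysosomal enzymes. The IGF binding proteins hold the ligands outside the cell, where they can keep them from the receptor or carry them to it, and proteases release the ligand by cutting them. Igf2 and Igf2r are imprinted in the mouse, Igf2 being expressed from the paternal allele and Igf2r from the maternal one. Fibroblasts and macrophages are both known sources of Igf1.

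TNFα acts on transcription mainly through NF-κB, so the promoter sequences next to the gene starts were read from RefSeq (build GRCm38.p6). Windows covering the 250 bases before a start were found for all 10 genes, 14 windows in all because Igf2 and Igfbp2 have more than 1 start. The NF-κB consensus, searched on both strands, matched in 1 of these 14 windows (7.14%), that of Igfbp5, and in 7.25% of all 32851 windows of the same length. Of the 8 windows of the genes used as a check of the TNFα treatment, 5 held a match (62.5%). These came from 5 of the 6 check genes that have a window (Cxcl10, Irf1, Nfkbia, Nfkbie and Tnfaip3). The promoters of 4 members are shown beside that of Nfkbia, the inhibitor IκBα: that of Igfbp3, the member with the widest difference between the genotypes, those of Igfbp4 and Igfbp5, which were also lower in SIMPL-/- MEFs, and that of Igfbp7, which was higher. Each runs 5′ to 3′ on the strand of the gene and ends at the base before the start. Capitals mark the NF-κB consensus in Igfbp5 and Nfkbia, TATAAA in Igfbp4 and GGGCGG (or CCGCCC, its other strand) in Igfbp7, and the Igfbp3 window holds no NF-κB match.
Igfbp3, chr11:7213924-7214173, minus strand: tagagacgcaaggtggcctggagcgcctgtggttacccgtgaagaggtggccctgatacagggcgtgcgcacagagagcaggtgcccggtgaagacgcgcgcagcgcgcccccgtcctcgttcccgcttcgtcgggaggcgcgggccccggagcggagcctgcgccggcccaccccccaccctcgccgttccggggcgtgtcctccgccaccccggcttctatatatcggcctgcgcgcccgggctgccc
Igfbp4, chr11:99040994-99041243, plus strand: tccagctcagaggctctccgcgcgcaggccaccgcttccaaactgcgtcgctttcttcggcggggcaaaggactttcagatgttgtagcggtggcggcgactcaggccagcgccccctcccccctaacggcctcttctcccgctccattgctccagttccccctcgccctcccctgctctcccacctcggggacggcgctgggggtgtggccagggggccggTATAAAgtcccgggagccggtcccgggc
Igfbp5, chr1:72874866-72875115, minus strand: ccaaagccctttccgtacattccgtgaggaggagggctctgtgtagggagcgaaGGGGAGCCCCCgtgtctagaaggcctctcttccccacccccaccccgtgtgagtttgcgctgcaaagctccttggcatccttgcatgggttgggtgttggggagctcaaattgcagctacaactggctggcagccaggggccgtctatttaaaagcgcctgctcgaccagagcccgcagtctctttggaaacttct
Igfbp7, chr5:77408046-77408295, minus strand: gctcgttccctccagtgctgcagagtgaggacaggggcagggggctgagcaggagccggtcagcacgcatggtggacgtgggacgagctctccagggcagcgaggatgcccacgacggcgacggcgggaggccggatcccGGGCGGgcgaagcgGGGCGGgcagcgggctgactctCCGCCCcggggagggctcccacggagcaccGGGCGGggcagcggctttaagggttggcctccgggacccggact
Nfkbia, chr12:55492648-55492897, minus strand: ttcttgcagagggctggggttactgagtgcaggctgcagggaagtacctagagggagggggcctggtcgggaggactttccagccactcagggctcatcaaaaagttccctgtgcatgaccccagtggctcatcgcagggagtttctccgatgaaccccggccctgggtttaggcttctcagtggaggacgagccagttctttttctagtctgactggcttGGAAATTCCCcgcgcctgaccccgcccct

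The capitals in the Igfbp5 window are 2 overlapping matches that begin 196 and 195 bases before the start, whereas the match in Nfkbia begins 29 bases before it. TATAAA began 28 bases before the start of Igfbp4. In the window of Igfbp6 it matched on the other strand (TTTATA), 148 bases before the start. Of all windows, 12.4% held a match on either strand. GGGCGG, the core of the GC box, was found in 6 of the 14 windows, those of Igf1r, Igf2, Igf2r, Igfbp2 and Igfbp7, against 32.7% of all windows. Igfbp7 held 4 matches, beginning 110, 96, 74 and 44 bases before its start. A match describes the letters of the window and is not evidence that a factor binds there. In the same annotation Igfbp2 and Igfbp5 lie next to each other, as do Igfbp3 and Igfbp1.

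The deletion was visible on every array. Irak1bp1 read between 7.65 and 8.21 on the log2 scale on the 8 WT arrays and between 5.08 and 5.62 on the 8 SIMPL-/- arrays, a difference of -2.73 without and -2.54 with TNFα. Array medians lay between 6.67 and 6.76, and arrays of the same group correlated across genes at 0.995 or more. Genotype moved a large part of the transcriptome: 40.9% of all genes were called between untreated SIMPL-/- and WT MEFs and 36.3% between the treated ones (limma, Benjamini-Hochberg adjusted p under 0.05 over all genes), so the counts of members below stand against a wide background. Of the untreated calls, 56.9% were higher in SIMPL-/- MEFs, and 68.6% when each array was centred on its median. The corresponding shares with TNFα were 49.2% and 67.3%. Among changes over 1.5-fold with an unadjusted p under 0.001 the direction turned, 32.1% being higher in SIMPL-/- MEFs without and 32.8% with TNFα. No batch is given for the arrays, so a batch that coincides with a group could not be told apart from it.

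Of the 10 IGF genes, 9 differed between the genotypes, in untreated and in treated MEFs. Both ligands, Igf2r and the binding proteins Igfbp2, Igfbp3, Igfbp4 and Igfbp5 were lower in SIMPL-/- MEFs, Igfbp7 and Igf1r were higher, and Igfbp6 was not called. The 7 lower members stand against 17.6% of all genes called lower without TNFα and 18.4% with it. The 2 higher members stand against 23.3% and 17.8% called higher. Since the members were chosen with earlier results of these data known, the shares describe them and are not a test. By this rule on the size of the change, 8 members passed in each comparison, all but Igf1r and Igfbp6, against 6.92% of all genes without TNFα and 8.02% with it. The median log2 difference over the members was -0.80 without TNFα, against 0.07 over all genes, and -0.87 with TNFα, against 0.03. Few genes of the array differed more than the leading members: in untreated MEFs 0.411% of genes had a larger absolute difference than Igfbp3, 0.732% than Igfbp4 and 0.802% than Igf1. Total RNA of a culture was measured, so fewer cells expressing a gene and less RNA per cell could not be told apart.

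**Figure D1:**
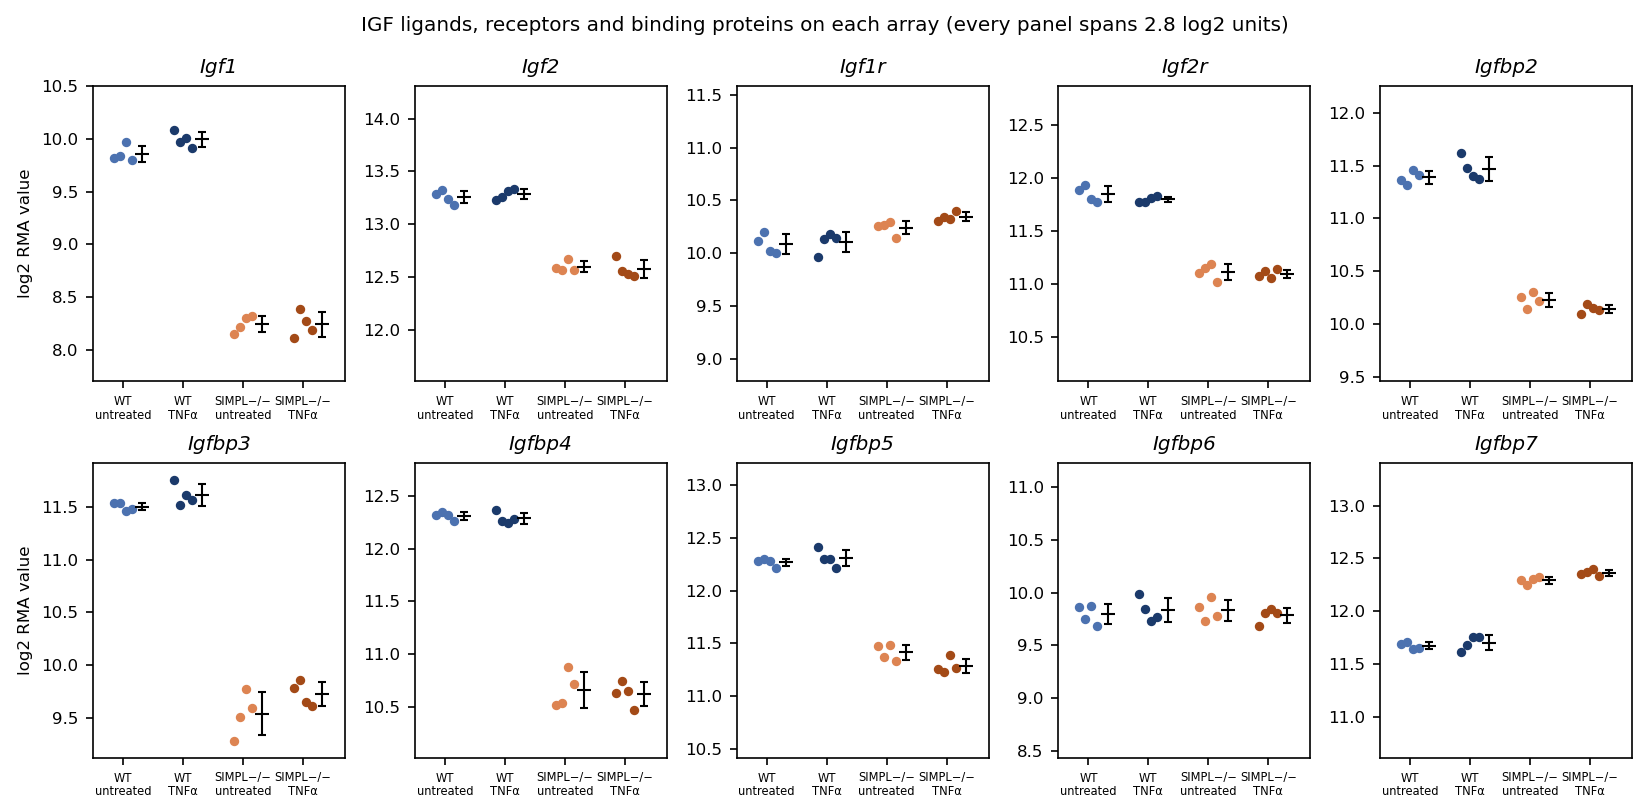
Log2 RMA values of the 10 IGF genes (y axis) on each of the 16 arrays, in the 4 groups on the x axis. Each point is 1 array and the black mark beside each group is its mean with the SD (n = 4). Igf1, Igf2, Igf2r and Igfbp2 to Igfbp5 lie lower on all SIMPL-/- arrays than on all WT arrays, Igfbp7 lies higher, Igfbp6 lies level and Igf1r shifts by less than 0.3. Values of different genes come from different probe sets and are not comparable as amounts.

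Igf1, the ligand with the higher affinity for Igf1r, was the more strongly reduced of the ligands. In untreated MEFs it read 9.81, 9.84, 9.97 and 9.80 on the WT arrays and 8.15, 8.21, 8.30 and 8.32 on the SIMPL-/- arrays. Every SIMPL-/- array therefore lay more than 1 log2 unit below every WT array. The log2 difference was -1.61 (SE 0.0652, n = 4 arrays per group, limma adjusted p = 7.38e-13), or 3.05-fold lower. With TNFα the WT arrays read 10.09, 9.97, 10.01 and 9.92 and the SIMPL-/- arrays 8.12, 8.38, 8.27 and 8.19, again without overlap. The difference was then -1.76 (limma adjusted p = 2.15e-13), or 3.38-fold lower.

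Igf2, the fetal growth factor of the family, was lower by less. Untreated WT arrays read 13.28, 13.32, 13.24 and 13.18 and untreated SIMPL-/- arrays 12.58, 12.56, 12.67 and 12.56. The groups did not overlap, and the difference was -0.66 (SE 0.0554, limma adjusted p = 1.61e-08), or 1.58-fold. In treated MEFs Igf2 read 13.23, 13.26, 13.32 and 13.33 in WT and 12.70, 12.55, 12.53 and 12.51 in SIMPL-/- cells. The highest of these SIMPL-/- arrays stayed below the lowest WT array, with a difference of -0.71 (limma adjusted p = 5.04e-09).

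The receptors went in opposite directions. Igf2r, which clears Igf2, read 11.89, 11.94, 11.80 and 11.78 on untreated WT arrays and 11.10, 11.15, 11.19 and 11.01 on untreated SIMPL-/- arrays. It was lower on all SIMPL-/- arrays, with a log2 difference of -0.74 (SE 0.0534, limma adjusted p = 2.14e-09), or 1.67-fold. With TNFα it read 11.78, 11.78, 11.81 and 11.83 in WT and 11.07, 11.12, 11.05 and 11.14 in SIMPL-/- MEFs, a difference of -0.70 (limma adjusted p = 3.59e-09).

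Igf1r, the signalling receptor, read 10.11, 10.20, 10.02 and 10.00 on untreated WT arrays and 10.26, 10.27, 10.29 and 10.15 on untreated SIMPL-/- arrays. The groups overlapped, since the lowest SIMPL-/- array lay below the highest WT array. The difference of 0.16 (SE 0.0607, limma adjusted p = 0.046) was just past the threshold, and 51.0% of all genes differed by more. It was not called when only the compared groups were fitted (adjusted p = 0.0573), by the methods' t-test (adjusted p = 0.0754) or after leaving out any of 10 of the 16 arrays, the adjusted p reaching 0.124. With TNFα the SIMPL-/- arrays, at 10.30, 10.35, 10.32 and 10.40, all lay above the WT arrays, at 9.97, 10.14, 10.18 and 10.14. The treated difference of 0.24 (limma adjusted p = 0.00422) was called in all 8 alternative fits and after leaving out any array.

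The binding proteins gave the widest range. Igfbp3, the main carrier of circulating IGFs, read 11.53, 11.53, 11.47 and 11.48 on untreated WT arrays and 9.28, 9.51, 9.78 and 9.59 on untreated SIMPL-/- arrays. No array of one genotype came within 1 log2 unit of the other. The difference was -1.96 (SE 0.0854, limma adjusted p = 1.84e-12), or 3.90-fold lower, and the spread among the untreated SIMPL-/- arrays (SD 0.205) was the widest of any member in any group. With TNFα Igfbp3 read 11.76, 11.52, 11.62 and 11.57 in WT and 9.78, 9.86, 9.65 and 9.61 in SIMPL-/- MEFs, a difference of -1.89 (limma adjusted p = 2.73e-12).

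Igfbp4, which mostly inhibits IGF action and is cut by the protease pregnancy-associated plasma protein A, followed closely. Its untreated values were 12.32, 12.35, 12.32 and 12.26 in WT and 10.52, 10.54, 10.88 and 10.72 in SIMPL-/- MEFs. The untreated difference was -1.65 (SE 0.0746, limma adjusted p = 3.10e-12), or 3.14-fold lower. With TNFα the values were 12.36, 12.26, 12.24 and 12.28 against 10.63, 10.75, 10.65 and 10.47, a difference of -1.66. In the untreated SIMPL-/- group array 1 gave the lowest value of Igf1, Igfbp3 and Igfbp4, and arrays 3 and 4 the 2 highest of each. The other lower members did not share this order. Igfbp2 was lowest on array 2 (10.14), and Igf2, Igf2r and Igfbp5 on array 4 (12.56, 11.01 and 11.33).

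Igfbp2 and Igfbp5, the neighbours on chromosome 1, were lower by intermediate amounts. Igfbp2, a binding protein abundant in the fetus, read 11.36, 11.32, 11.46 and 11.41 on untreated WT arrays and 10.26, 10.14, 10.30 and 10.22 on untreated SIMPL-/- arrays, a difference of -1.16 (SE 0.0601, limma adjusted p = 2.11e-11) or 2.23-fold. With TNFα it read 11.62, 11.47, 11.40 and 11.37 against 10.09, 10.19, 10.15 and 10.13, a difference of -1.33. Neither pair of groups overlapped.

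Igfbp5, which binds extracellular matrix as well as IGFs, read 12.28, 12.29, 12.28 and 12.22 on untreated WT arrays and 11.47, 11.37, 11.48 and 11.33 on untreated SIMPL-/- arrays. The difference was -0.85 (SE 0.0567, limma adjusted p = 6.64e-10), or 1.81-fold. Treated MEFs gave 12.41, 12.30, 12.30 and 12.22 in WT and 11.26, 11.23, 11.39 and 11.27 in SIMPL-/- cells, a difference of -1.02 or 2.03-fold. Again all SIMPL-/- arrays lay below all WT arrays.

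Igfbp7, a relative of the classical binding proteins with low affinity for IGFs, was the exception among them. It read 11.69, 11.71, 11.64 and 11.65 on untreated WT arrays and 12.30, 12.25, 12.31 and 12.32 on untreated SIMPL-/- arrays. All SIMPL-/- arrays were higher, by 0.62 (SE 0.0488, limma adjusted p = 6.53e-09) or 1.54-fold. With TNFα the difference was 0.66, from 11.62, 11.68, 11.76 and 11.76 in WT to 12.36, 12.37, 12.40 and 12.33 in SIMPL-/- MEFs.

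Igfbp6, which prefers Igf2 to Igf1, was the member whose group means spanned the least, 0.05 on the log2 scale. It read 9.87, 9.75, 9.88 and 9.68 in untreated WT and 9.86, 9.74, 9.96 and 9.78 in untreated SIMPL-/- MEFs. The difference of 0.04 had a 95% interval from -0.10 to 0.18 (limma adjusted p = 0.661). With TNFα the groups, at 9.99, 9.85, 9.73 and 9.77 and at 9.68, 9.81, 9.84 and 9.81, overlapped too, and the difference was -0.05 with an interval from -0.19 to 0.09 (limma adjusted p = 0.614).

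**Figure D2:**
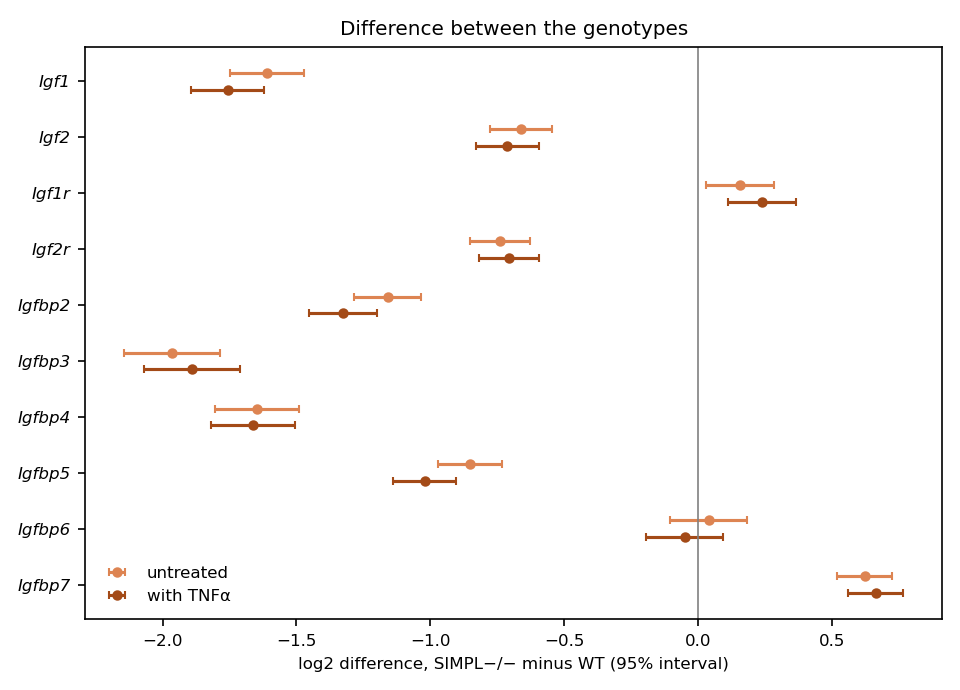
Log2 difference SIMPL-/- minus WT (x axis) of each IGF gene (y axis), in untreated (light) and TNFα treated (dark) MEFs, with 95% intervals from the fit to all 16 arrays (bars). The 7 lower members run from Igfbp3 at -1.96 to Igf2 at -0.66 in untreated MEFs, Igfbp7 lies at 0.62, and the interval of Igfbp6 crosses 0 in both.

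Counted by array, the untreated groups did not overlap for 8 members, 7 lower and 1 higher in SIMPL-/- MEFs, against 39.6% of all genes (17.5% lower and 22.1% higher), and Igf1r and Igfbp6 overlapped. With TNFα they did not overlap for 9 members, 7 lower and 2 higher, against 33.3% of all genes (17.2% lower and 16.1% higher). The order of the untreated differences, from Igfbp3 through Igfbp4, Igf1, Igfbp2, Igfbp5, Igf2r and Igf2 to Igfbp6, Igf1r and Igfbp7, held neighbours whose intervals overlap: that of Igfbp4 ran from -1.81 to -1.49 and that of Igf1 from -1.75 to -1.47. Likewise Igf2r, at -0.85 to -0.63, and Igf2, at -0.78 to -0.54, were not separated. The methods give 4 MEF preparations for each strain, which has 8 arrays, so by that count arrays of a genotype share embryos. The 2 genotype comparisons are therefore not independent.

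TNFα did not move the family past the threshold in either genotype. In WT MEFs 0 of the 10 members were called, by limma and by the methods' t-test alike, against 5.15% of all genes by limma, and 1 had an unadjusted p under 0.05. In SIMPL-/- MEFs 0 were called by both tests, against 3.12% of all genes by limma, and 2 had an unadjusted p under 0.05. The share of all genes with an unadjusted p under 0.05 was not counted, so counts by that rule have no background here. The 95% intervals of the members ran from -0.18 to 0.29 in WT and from -0.25 to 0.37 in SIMPL-/- MEFs, so a rise above 1.29-fold lay outside the interval of every member. These are responses of mRNA within the first hour, and secreted or cleaved proteins were not measured.

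The response to the treatment was read from known targets. All 7 genes used to check it, the chemokines Cxcl10 and Ccl2, the NF-κB inhibitors Tnfaip3, Nfkbia and Nfkbie, the transcription factor Irf1 and the adhesion molecule Icam1, rose in both genotypes, with a median log2 difference of 3.34 in WT and 2.93 in SIMPL-/- MEFs. These were chosen as known TNFα targets, with earlier results of these data known.

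**Figure D3:**
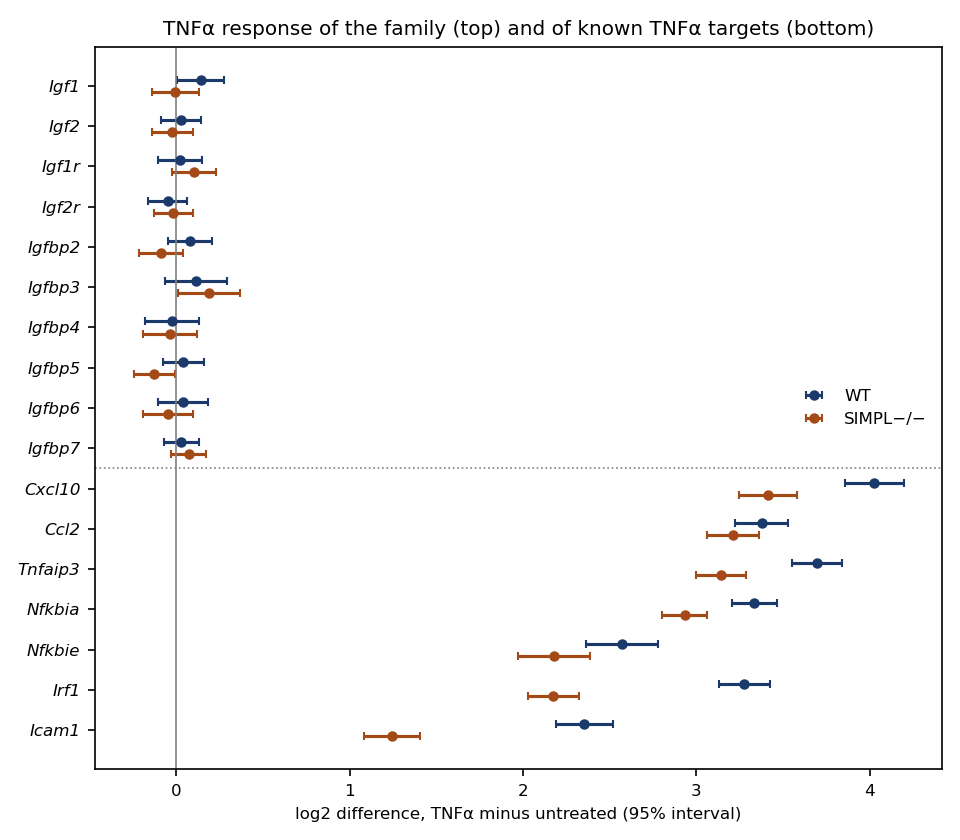
Log2 difference TNFα minus untreated (x axis) of the 10 IGF genes and, under the dotted line, of the 7 known TNFα targets (y axis), in WT (blue) and SIMPL-/- (orange) MEFs, with 95% intervals (bars). All IGF genes lie between -0.13 and 0.19, and all targets lie above 1.

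The members nearest to a response can be read from the values already given. Igf1 in WT MEFs was 0.14 higher with TNFα (unadjusted p = 0.0446, limma adjusted p = 0.284), and the lowest treated array, at 9.92, lay below the highest untreated one, at 9.97. Igfbp3 in SIMPL-/- MEFs was 0.19 higher (limma adjusted p = 0.298), with untreated arrays from 9.28 to 9.78 and treated arrays from 9.61 to 9.86. Igfbp5, the member whose window holds the NF-κB consensus, differed by -0.13 in SIMPL-/- MEFs (limma adjusted p = 0.279) and by 0.04 in WT MEFs (limma adjusted p = 0.794). By array, Igf1r and Igfbp7 were higher on all treated than on all untreated SIMPL-/- arrays, by 0.10 and 0.07, neither of which was called. Of all genes, 9.28% did not overlap in this comparison (3.87% higher), and in WT MEFs, where 11.4% did not, all 10 members overlapped.

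The difference between the TNFα responses of the genotypes was tested as an interaction, and 0 of the 10 members were called by limma or by the corresponding unmoderated test, against 0.537% of all genes by limma. Igfbp5 alone had an unadjusted p under 0.05, the SIMPL-/- response minus the WT response being -0.17 (limma adjusted p = 0.387). Over the members the intervals of this difference ran from -0.34 to 0.33.

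Genes that act on the IGF axis were read from 5 lists, chosen with earlier results of these data known. Of all genes, 23.3% were called higher and 17.6% lower in untreated SIMPL-/- MEFs. With TNFα these shares were 17.8% and 18.4%. Of 13 genes that govern access to the ligands (proteases that cut binding proteins, their inhibitors and other carriers), 5 were higher and 5 lower in untreated SIMPL-/- MEFs, with a median of 0.12. The largest were Ctsd, the lysosomal protease cathepsin D, at -0.86, Htra1, a secreted serine protease, at -0.72, and Adam12, a metalloprotease that cuts Igfbp3 and Igfbp5, at 0.60. Igfbp1, the remaining classical binding protein, read 6.01, 6.29, 5.83 and 5.94 in untreated WT and 6.04, 6.36, 6.13 and 6.19 in untreated SIMPL-/- MEFs and was not called (0.16, limma adjusted p = 0.188). These values lay below the lowest array median, 6.67, so whether Igfbp1 was expressed cannot be told from them. The same holds for Igfals, called higher, with means of 5.85 in untreated WT and 6.13 in untreated SIMPL-/- MEFs. Igfbpl1 (5.62 and 6.00) and Pappa2 (6.22 and 6.00) lay as low, and Stc1 had means of 6.39 and 6.92. The counts above therefore include genes with values near or below the array medians. With TNFα 3 of the 13 were higher and 4 lower in SIMPL-/- MEFs.

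Of 19 measured genes of IGF and insulin signalling, 3 were higher and 7 lower in untreated SIMPL-/- MEFs, with a median of -0.05. The shares over all genes were 23.3% higher and 17.6% lower. Pik3r1, the regulatory subunit p85α of PI3 kinase, differed by -0.75, lying between 9.98 and 10.08 on the WT arrays and between 9.20 and 9.34 on the SIMPL-/- arrays. Irs1, the adaptor that binds the activated receptor, differed by -0.72, and Grb14, an adaptor that inhibits receptor signalling, by 0.51.

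Irs1 was also the member of this list that moved with TNFα in both genotypes. In WT MEFs it fell from 9.96, 9.98, 9.90 and 9.85 to 9.31, 9.39, 9.60 and 9.47, a difference of -0.48 (SE 0.0751, limma adjusted p = 0.000402). In SIMPL-/- MEFs it fell from 9.16, 9.26, 9.28 and 9.12 to 8.81, 8.93, 8.60 and 8.92, a difference of -0.39 (limma adjusted p = 0.00518). The groups did not overlap in either genotype, and the responses differed by 0.09 (limma adjusted p = 0.754). Foxo1, a transcription factor that Akt keeps out of the nucleus, was called in SIMPL-/- MEFs, at -0.30 (limma adjusted p = 0.0112), and not in WT MEFs, at -0.04, and the difference between these responses was not called (limma adjusted p = 0.248). In all, 1 of the 19 genes fell in WT and 2 in SIMPL-/- MEFs, and 0 rose in either. Of all genes, 5.15% were called in either direction in WT and 3.12% in SIMPL-/- MEFs.

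The IGFBP-related genes, which share the binding proteins' N-terminal domain, went mostly the other way from Igfbp2 to Igfbp5. Of 8 measured, 7 were higher in untreated SIMPL-/- MEFs and 1 lower, with a median of 0.57. The lower one was Ccn3, a matricellular protein that inhibits growth, which read 12.31, 12.18, 12.23 and 12.16 on the WT arrays and 10.28, 10.67, 10.90 and 10.72 on the SIMPL-/- arrays, a difference of -1.57. Ccn2, connective tissue growth factor, read 11.54, 11.47, 11.48 and 11.49 on the WT and 12.72, 12.55, 12.62 and 12.54 on the SIMPL-/- arrays, a difference of 1.11, and Crim1, a transmembrane protein that binds bone morphogenetic proteins, was higher by 0.89. Esm1, also called higher, lay below the lowest array median, 6.67, with means of 5.16 in untreated WT and 5.47 in untreated SIMPL-/- MEFs. With TNFα present 5 of the 8 genes were higher and 1 lower in SIMPL-/- MEFs. In response to TNFα, Ccn4 rose by 0.25 in WT MEFs (limma adjusted p = 0.00517) and Ccn5 fell by 0.36 in SIMPL-/- MEFs (limma adjusted p = 0.0234), and neither response was called as different between the genotypes (limma adjusted p = 0.481 and 0.305).

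Of 8 measured imprinted genes that act on growth, 7 were lower in untreated SIMPL-/- MEFs and 1, Slc38a4, was higher, with a median of -0.44. Cdkn1c, the cell cycle inhibitor p57, read 11.90, 11.95, 11.95 and 11.94 on WT and 9.16, 9.27, 9.51 and 9.39 on SIMPL-/- arrays, a difference of -2.60 or 6.08-fold. Mest differed by -2.46, lying between 12.45 and 12.58 on the WT arrays and between 9.95 and 10.28 on the SIMPL-/- arrays, and Plagl1, a transcription factor of the same imprinted network as Igf2, by -0.89. With TNFα 6 were lower and 1 higher, and Peg3 fell by 0.35 in response to TNFα in SIMPL-/- MEFs (limma adjusted p = 0.00694). Of the 2 measured Igf2 mRNA binding proteins, Igf2bp1 was higher in SIMPL-/- MEFs, by 0.57, and Igf2bp3 was not called.

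**Figure D4:**
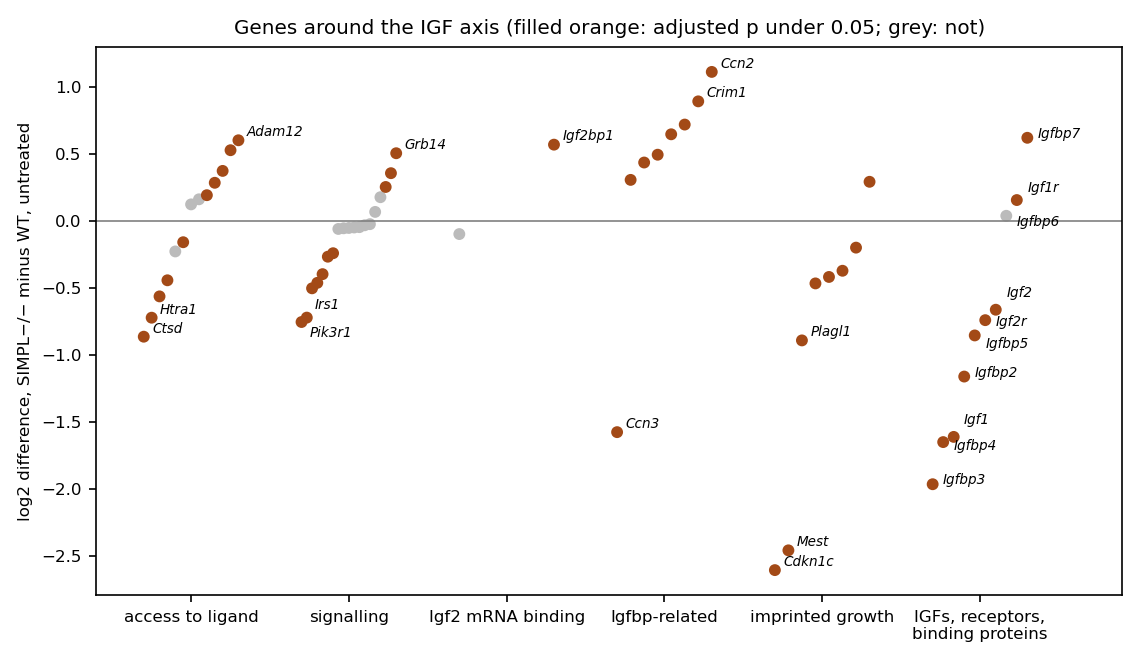
Log2 difference SIMPL-/- minus WT in untreated MEFs (y axis) of each gene of 5 lists around the IGF axis and of the 10 IGF genes (x axis, ordered by value within a list). Each point is 1 gene, orange where the limma adjusted p was under 0.05 and grey where it was not. The imprinted genes and the IGF genes lie mostly below 0, down to Cdkn1c at -2.60, and the IGFBP-related genes mostly above it, with Ccn3 at -1.57 apart.

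Markers of other cell types also differed between the genotypes. All 22 myeloid markers were lower in untreated SIMPL-/- MEFs, with a median of -2.40, and the mean over the list ranged from 9.72 to 10.12 on untreated WT arrays and from 7.58 to 7.74 on untreated SIMPL-/- arrays. With TNFα the ranges were 9.80 to 10.26 and 7.59 to 7.69. The brightest were Lyz2 (lysozyme), Fcer1g, C1qb (a complement component) and Cd68, which differed by -1.82, -2.83, -2.58 and -2.96. Of 12 fibroblast markers 9 were lower and 2 higher. The median over the fibroblast list was -0.36. The 4 brightest, Col1a1, Col1a2, Vim and Fn1, differed by -0.24, -0.29, 0.16 and -0.39, and the collagen-binding proteoglycans Lum and Dcn by -2.87 and -1.02. Thy1 went the other way, with a mean of 11.61 on untreated WT and 12.34 on untreated SIMPL-/- arrays. The mean over the list ran from 12.2 to 12.3 on untreated WT and from 11.7 to 11.8 on untreated SIMPL-/- arrays.

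Of 8 adipocyte markers 7 were higher in untreated SIMPL-/- MEFs, the list mean lying between 6.93 and 6.97 on the WT and between 8.13 and 8.22 on the SIMPL-/- arrays, and the 4 brightest, Lpl, Cebpa, Fabp4 and Pparg, differed by 0.52, 0.18, 2.44 and 0.82. Of 6 epithelial markers, 5 were higher in SIMPL-/- MEFs without TNFα and 3 with it. The brightest were Krt8, Krt18, Krt19 and Cldn4. Krt18 differed by 2.13 without TNFα, whereas Cldn4 had a mean of 6.51 in untreated WT and 6.75 in untreated SIMPL-/- MEFs, next to the array medians. Cdh1 (5.71 and 5.98) and Epcam (5.56 and 5.65) lay below the lowest array median, 6.67. Whether these were expressed cannot be told from such values. Also higher without TNFα were 5 of 6 markers of smooth muscle and myofibroblasts. The brightest of these, Acta2, Tagln, Actg2 and Cnn1, differed by 0.23, 0.68, 0.86 and 0.97. Higher too were 2 of 6 markers of skeletal muscle, 1 of 6 of cartilage and bone and 1 of 7 of endothelium. Against the 23.3% of all genes called higher, the shares of the cartilage and bone and of the endothelial list were lower, and that of the skeletal muscle list rests on 2 genes. Of 9 proliferation genes 5 were higher and 2 lower. In direction alone, the 7 lower members were like the myeloid list and most fibroblast markers. Igfbp7 and Igf1r were like most adipocyte and smooth muscle markers and the keratins of the epithelial list. Any gene that differed between the genotypes would match some list in this way. The part of these cell types in the differences of the IGF genes was not tested.

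Within a group the myeloid mean and Igf1 can be set side by side. Among untreated WT arrays, array 3 had the highest myeloid mean, 10.12, with Igf1 at 9.97, the highest of its group, and array 2 the lowest, 9.72, with Igf1 at 9.84, the second highest. Among treated WT arrays the order was the same for both, from array 1 (10.26 and 10.09) to array 4 (9.80 and 9.92). Treated WT array 1 was also highest for Igfbp2 to Igfbp6 and for the fibroblast, adipocyte, endothelial and cartilage and bone means. It was lowest for Igf2, Igf1r and Igfbp7. Igfbp2 followed the order of the myeloid mean among untreated WT arrays but not among treated ones. Among untreated SIMPL-/- arrays, array 4 had the lowest myeloid mean, 7.58, and the highest Igf1, 8.32. Among treated SIMPL-/- arrays, array 1 was lowest in both (7.59 and 8.12), array 2 had the highest Igf1, 8.38, with a myeloid mean of 7.67, and array 4 had the highest myeloid mean, 7.69, with Igf1 at 8.19.

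**Figure D5:**
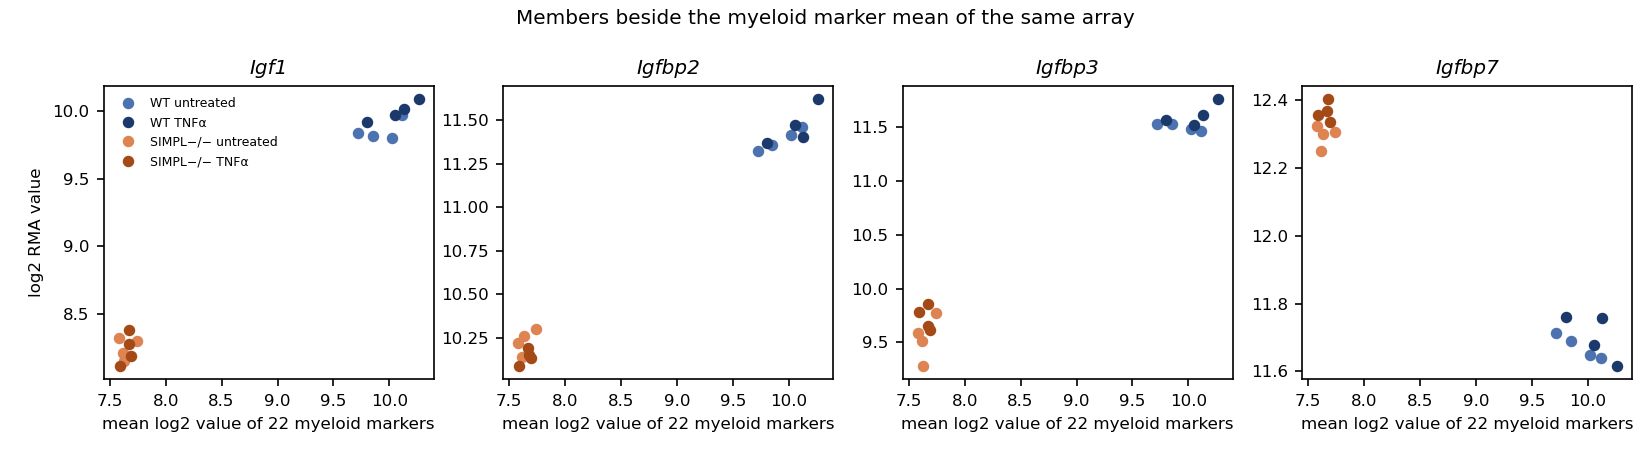
Log2 RMA values of Igf1, Igfbp2, Igfbp3 and Igfbp7 (y axis, 1 panel each, scales differ) against the mean log2 value of 22 myeloid markers (x axis) on the same array. Each point is 1 of the 16 arrays, coloured by group. The arrays form 2 clusters by genotype, near 10 and near 7.6 on the x axis, so a correlation over all 16 arrays restates the difference between the genotypes.

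The genes whose pattern over the 16 arrays was most like that of the 4 members with the widest range were found among the 754 genes whose group means span at least 1 log2 unit. For Igfbp3 they were Egfl6 (Pearson r = 0.996), a secreted EGF-repeat protein, and Mgp (r = 0.995), an inhibitor of calcification. For Igf1 they were Cdkn1c (r = 0.998) and Gas2 (r = 0.997), for Igfbp4 Mfap4 (r = 0.998), a protein of elastic fibres, and Mest (r = 0.997), and for Igfbp2 the myeloid markers Ctss (r = 0.998) and Cd68 (r = 0.997). These values describe likeness only: the arrays share the genotype split, and 453 to 456 of the 754 genes had r above 0.9 to each of these members.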

How the data were processed

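RNA of 16 MEF cultures was hybridised to Affymetrix Mouse Gene 1.0 ST arrays. The authors deposited log2 values made with RMA in Partek, per the labels, for 28853 probe sets (range 2.41 to 14.9). The methods name Affymetrix Microarray Suite version 5 instead, and the versions of RMA and Partek are not given in the sources used here. Arrays give no counts, so their number limits the precision. Each limma p-value rests on the spread within the 4 groups, pooled over all 16 arrays and moderated across genes. The fit treats the arrays as independent. The methods give 4 MEF preparations for each strain, so untreated and treated arrays of a genotype may share embryos.

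Probe sets with exactly 1 gene symbol in the platform annotation (21789) were kept, and 1621 with several symbols and 5443 not listed with one were left out. The brightest probe set stood for each of 19938 genes, 999 of which had several. Of these genes 19856 matched a RefSeq entry by gene ID. No value was filtered. Groups came from the sample titles. A limma (version 3.58.1, R 4.3.3) model with a mean for each of 4 groups gave 5 two-sided contrasts, with 12 residual and 6.19 prior degrees of freedom and Benjamini-Hochberg adjustment over all genes. The methods give an unpaired t-test and a false discovery rate correction, and the t-test was an alternative. The script was tested on simulated data.

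The text names the 10 members, Irak1bp1, up to 3 genes of each pathway list with the largest called difference between the genotypes and up to 2 called for each TNFα response, the 4 brightest genes of 5 marker lists and the 2 genes most like each of 4 members. Igfbp1, Slc38a4, Igf2bp3, Lum, Dcn, Thy1 and the check genes were added after their values were seen. Members and lists were chosen with earlier results of these data known. Not analysed here were 9 genes of the lists. Promoters came from RefSeq windows of 300 bases (GRCm38.p6). Alternatives were median centring, quantile normalization, a filter on genes under 6, mean probe sets, trended robust moderation, the t-test, a fit to only the groups compared, array weights, a rule of 1.5-fold with p under 0.001, and leaving out each array.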

Additional observations from a re-analysis of the deposited data

How the results depend on the processing

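No paired analysis was possible because the arrays carry no replicate number in the labels and no source ties untreated to treated arrays of an embryo. The count of called members stayed at 0 for both TNFα responses and their difference under every alternative, and lay between 8 and 9 for both genotype comparisons. The untreated count was 8 in 13 of 25 alternatives, Igf1r being the gene lost, and the treated count was 8 only under the rule of 1.5-fold with p under 0.001. The other 8 called members kept their direction and call in all fits, with Igfbp3 untreated between -1.97 and -1.92 and Igfbp7 between 0.62 and 0.66 over 8 alternatives. Of 1190 member differences recomputed, 1149 kept direction and call. The 29 that changed sign were all uncalled. With arrays centred these were Igf1 (0.029), Igf2 (0.012) and Igf2r (0.019) in the SIMPL-/- response, Igfbp4 in the difference between responses (0.017) and Igfbp6 between treated genotypes (0.021). With quantile normalization they were Igf1r (-0.0033) and Igfbp7 (-0.010) in the WT response and Igf1 (0.019) in the SIMPL-/- response, and with array weights Igf1 in the SIMPL-/- response (0.037) and Igfbp4 in the difference (0.034). Leaving out 1 array moved the WT response of Igf1r between -0.0062 and 0.067 and of Igfbp6 between -0.010 and 0.074, and the SIMPL-/- response of Igf1 between -0.053 and 0.036, of Igf2 between -0.065 and 0.0025, of Igf2r between -0.050 and 0.0096 and of Igfbp4 between -0.088 and 0.033. It moved the difference between responses between -0.012 and 0.153 for Igfbp3 and between -0.063 and 0.058 for Igfbp4, and untreated Igfbp6 between genotypes from -0.0023 to 0.073. Igf1r between untreated genotypes ranged from 0.130 to 0.197, and its call was lost without untreated WT array 1, 3 or 4, treated WT array 2 or 4, untreated SIMPL-/- array 1, 2 or 3, or treated SIMPL-/- array 2 or 3. Over all genes, the difference between responses gave 107 calls, against 253 with trended moderation, 182 with array weights, 156 without dim genes, 73 by the unmoderated test, 66 by the fold rule, and 66 to 184 after leaving out 1 array (treated SIMPL-/- array 2 or 3). The share of higher calls there was 17.8%, against 28.7% with quantile normalization, 38.7% with trended moderation, 9.59% by the unmoderated test and 7.58% or 29.3% without those arrays. The SIMPL-/- response gave 623 calls, against 241 by the t-test, 406 from the compared groups alone and 400 without treated SIMPL-/- array 2, and the share of higher calls went from 55.4% to 72.5% with centring. The WT response gave 1026 calls, against 501 by the t-test, and the fold rule gave 200 in WT, 104 in SIMPL-/- MEFs, and 1380 untreated and 1599 treated between the genotypes, against 8151 and 7230. The causes were not tested.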
